A study of Danio rerio with 6 samples.

Results

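The genes that make, carry and break down the monoamine transmitters dopamine, noradrenaline and serotonin were examined in brains of zebrafish held in low oxygen. The set was defined by name as 10 genes, namely th, th2, ddc, dbh, slc6a3, slc6a4a, slc18a2, tph1a, tph2 and mao, and a gene was measured where at least 1 array row was annotated with its symbol alone. By this rule 9 of the 10 genes were measured, of 19260 genes in all. th had 2 rows, which were averaged, and the other 8 had 1 row each. The dopamine transporter gene slc6a3 is not analysed here, because the 1 row that carries its symbol is annotated with 2 spellings, slc6a3 and SLC6A3, and whether these mean the same gene is not settled by the annotation.

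The study exposed 3 adult fish (Danio rerio, Tübingen strain, about 1 year old, sex not specified) individually for 3 h to water depleted of oxygen with nitrogen, at 1.20 ± 0.6 mg/l dissolved oxygen, and compared them with 3 fish in water with an ambient 6.6 ± 0.45 mg/l. The labels state neither what the ± stands for nor how the ambient fish were handled. Fish were killed by hypothermic shock, and each brain gave 1 array, so the replicates are separate fish, called hypoxia 1 to 3 and normoxia 1 to 3. Values are log2 intensities as the authors deposited them. Array medians over all genes ran from 7.32 to 7.60, and the SD over genes ran from 1.25 in hypoxia 1 to 1.60 in normoxia 1. The gene values of the arrays thus did not share a common distribution, although the design text names quantile normalization.

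Catecholamines are made from tyrosine by tyrosine hydroxylase, the rate-limiting step, then by aromatic amino acid decarboxylase to dopamine, and in noradrenergic neurons by dopamine beta-hydroxylase to noradrenaline. Serotonin is made from tryptophan by tryptophan hydroxylase and the same decarboxylase. All of these hydroxylases consume molecular oxygen, and the tyrosine and tryptophan enzymes also need the cofactor tetrahydrobiopterin. The neurons concerned lie in a few small nuclei, such as the locus coeruleus and the raphe, so a sample of the brain dilutes their transcripts. In such bulk RNA, fewer cells of a type and less RNA per cell cannot be told apart.

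No monoamine gene passed the test between hypoxia and normoxia brains, where 1 of all 19260 genes (0.00519%) did. The noradrenaline gene dbh was the member with the smallest p, with a lower mean in hypoxia, and the serotonin synthesis gene tph1a was the member with the largest difference in the other direction. Means were lower in hypoxia for 7 of the 9 members and higher for 2, and 61% of all genes had a lower mean. The median log2 difference of the members was -0.18, against -0.08 over all genes. This balance depended on scaling. The scalings tried here used values of the 19260 genes only. With arrays shifted to equal medians over genes, which moved the median of all genes to 0.06, the members' median was -0.04. After quantile normalization of gene values it was 0.02, against 0.01 over all genes. Medians over all array rows were 6.59, 6.54 and 6.45 in hypoxia and 6.28, 6.60 and 6.38 in normoxia. Normoxia 1 was thus lowest over all rows but highest over genes (7.60), and no scaling on all rows was run. Under the 3 scalings 6 members kept the sign of their difference, and tph2, slc18a2 and mao did not.

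**Figure D1:**
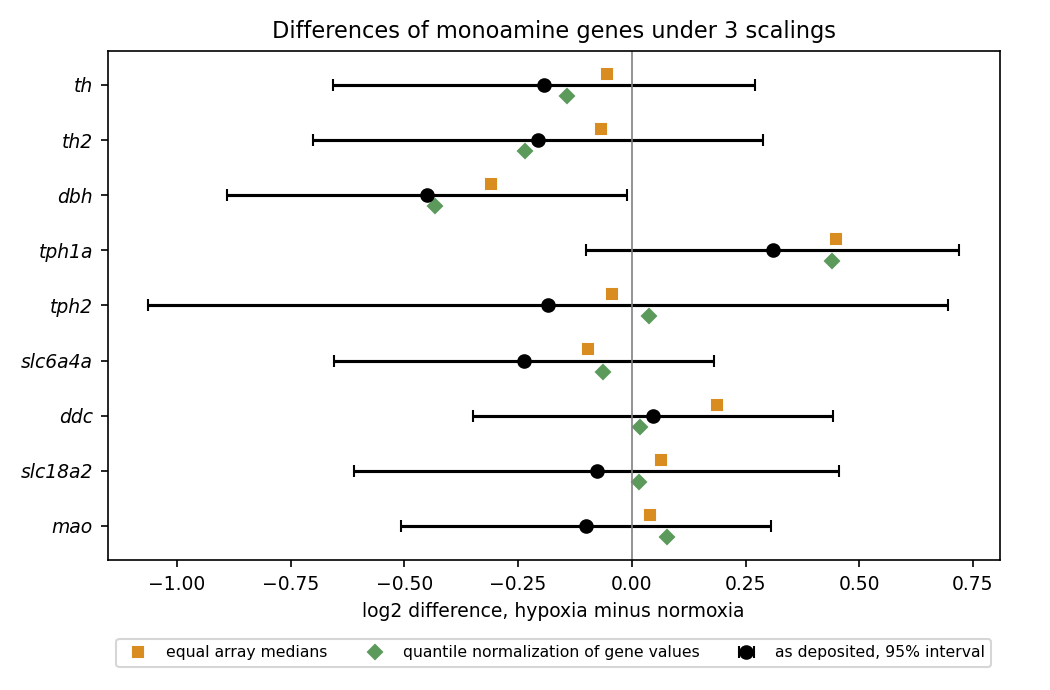
Log2 difference, hypoxia minus normoxia, for the 9 measured monoamine genes. Black points with bars are the limma estimates and 95% intervals from the deposited values (3 fish per group), squares are estimates with equal array medians and diamonds are those after quantile normalization of gene values. Among the black bars, that of dbh alone leaves out 0, and it does so before adjustment for 19260 genes.

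Values of hypoxia and normoxia brains did not overlap in 3 of the 9 members, dbh and slc6a4a with hypoxia lower and tph1a with hypoxia higher. Over all genes 11.3% did not overlap, 9.01% with hypoxia lower and 2.33% with hypoxia higher. tph1a was the one member whose groups stayed apart under all 3 scalings, by 0.02 in the deposited values. Since the other scalings used gene values only, this does not show whether its groups would stay apart with arrays scaled on all rows. The shares of genes without overlap given here hold for the deposited values, and none was computed for the other scalings. The groups of dbh stayed apart with equal array medians but not after quantile normalization, and those of slc6a4a overlapped under both. ddc, whose groups overlapped in the deposited values, had all hypoxia fish higher with equal array medians (a log2 difference of 0.19) but not after quantile normalization.

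**Figure D2:**
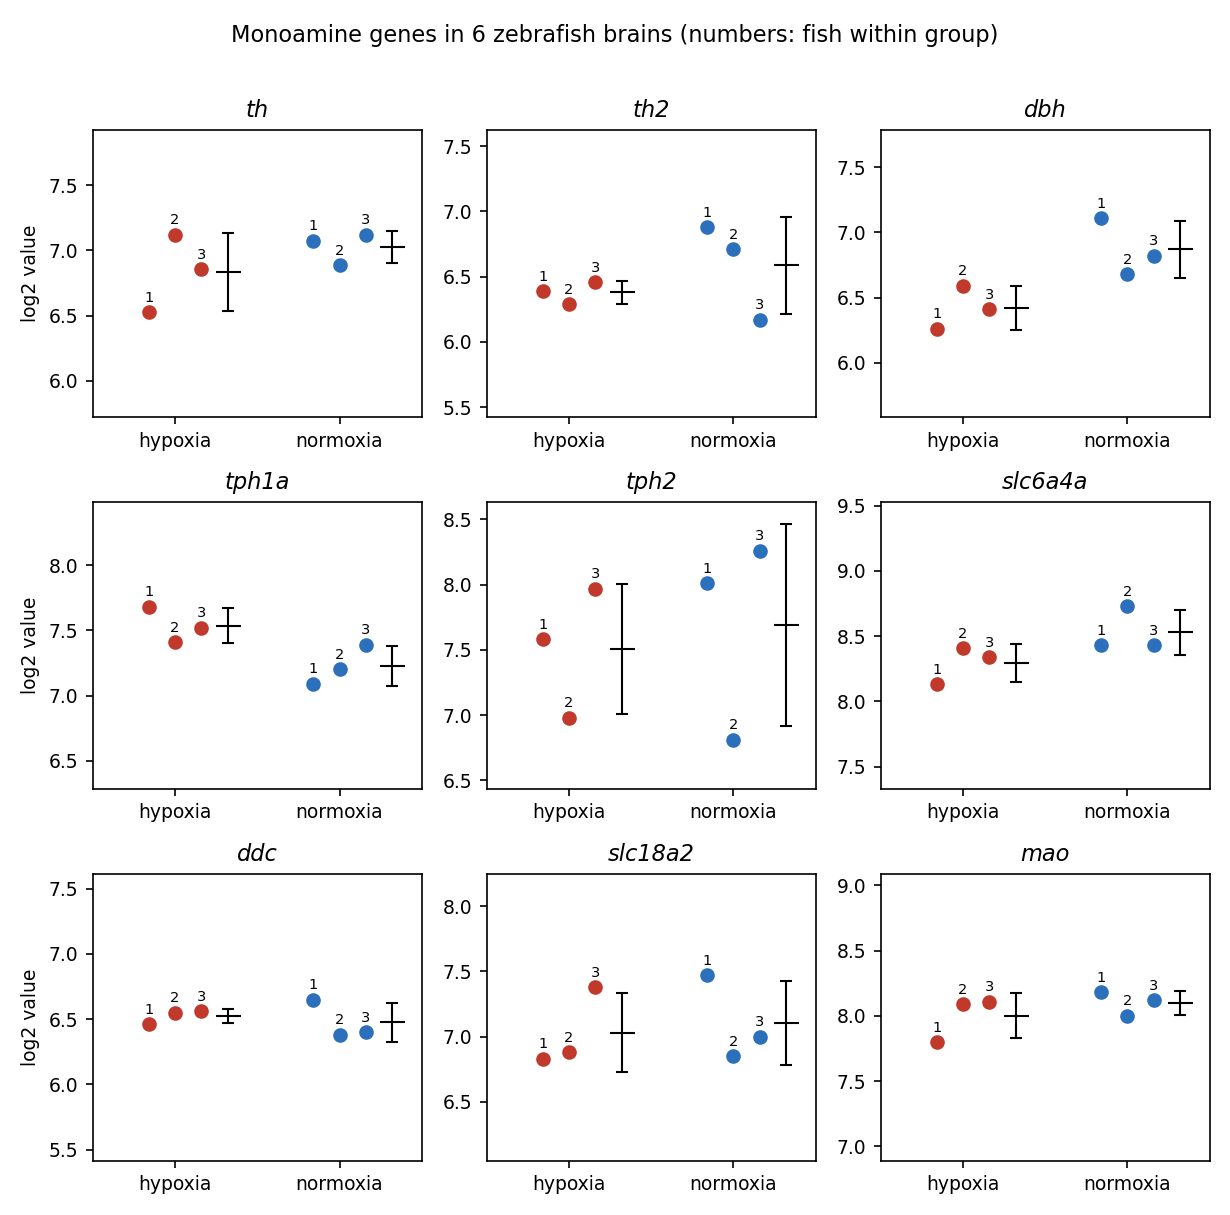
Log2 values of the 9 measured genes in each fish, hypoxia left of normoxia. Numbers give the fish within its group, and the black mark and bar are the mean and SD of 3 fish. All panels span the same number of log2 units. The points of dbh, tph1a and slc6a4a separate by group, and those of tph2 are the most spread.

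Of the catecholamine genes, th encodes tyrosine hydroxylase of dopamine and noradrenaline neurons. It measured 6.525, 7.12 and 6.855 in hypoxia brains, against 7.075, 6.885 and 7.12 in normoxia brains. Only hypoxia 1 lay clearly below the others, and hypoxia 2 equalled normoxia 3, so the groups overlapped. The log2 difference was -0.19 (SE 0.21, limma adjusted p = 0.814), a ratio of 0.875 with a 95% interval of 0.634 to 1.21. The 2 rows of th differed in brightness. The brighter gave 7.66, 8.59 and 8.34 in hypoxia and 8.56, 8.36 and 8.60 in normoxia, a difference of -0.31. The dimmer lay at or below 5.65 in all 6 brains and differed by -0.08.

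th2, the other tyrosine hydroxylase gene of fish, measured 6.39, 6.29 and 6.46 in hypoxia brains and 6.88, 6.71 and 6.17 in normoxia brains. The hypoxia values were close together, and normoxia 3 was the lowest of the 6 while the other normoxia fish were the highest. The difference was -0.21 (SE 0.22, limma adjusted p = 0.814), and it was -0.42 without normoxia 3 and -0.06 without normoxia 1.

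dbh, whose product turns dopamine into noradrenaline, measured 6.26, 6.59 and 6.41 in hypoxia brains, against 7.11, 6.68 and 6.82 in normoxia brains. Every hypoxia value lay below every normoxia value, with a gap of 0.09 between hypoxia 2 and normoxia 2. The means were 6.42 ± 0.17 and 6.87 ± 0.22 (SD, n = 3 each). The log2 difference of -0.45 (SE 0.19) corresponds to a ratio of 0.732, with a 95% interval of 0.54 to 0.993. Its unadjusted limma p was 0.0457, and 6.66% of all genes had an unadjusted p under 0.05. The adjusted p of 0.72 did not pass. With any 1 array left out the estimate lay between -0.55 and -0.33, where its negative sign was fixed by the lack of overlap. It was -0.31 with equal array medians and -0.43 after quantile normalization.

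The change of dbh was set beside that of th, which marks both dopamine and noradrenaline neurons, in a contrast added after the values were seen. The log2 difference of dbh minus that of th, taken within fish, was -0.26 (exact two-sided permutation p = 0.2, adjusted 0.45 over 3 such contrasts), where 0.1 is the smallest p that 3 against 3 fish allow. Markers of the interrenal gland, whose neighbouring chromaffin cells also express th and dbh, were checked with 8 of 9 list genes measured. The gene not measured was pnmt, the chromaffin gene of the list, so these values show interrenal and not chromaffin markers. Averaged over the list, hypoxia brains had 6.70, 6.69 and 6.47 and normoxia brains 6.03, 6.73 and 6.39. The lowest was normoxia 1, the fish in which dbh was highest and the array with the largest SD over genes (1.60). All these levels lay below the array medians over genes, 7.32 to 7.60, so they do not show whether such tissue was present. The part of such tissue in the values of dbh was not tested.

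On the serotonin side, tph1a encodes 1 of the tryptophan hydroxylases of zebrafish. It measured 7.68, 7.41 and 7.52 in hypoxia brains, against 7.09, 7.20 and 7.39 in normoxia brains. All 3 hypoxia fish were above all 3 normoxia fish, with a gap of 0.02 between hypoxia 2 and normoxia 3. The means were 7.54 ± 0.14 and 7.23 ± 0.15 (SD, n = 3 each), a log2 difference of 0.31 (SE 0.18, limma unadjusted p = 0.121, adjusted p = 0.736). The ratio was 1.24, with a 95% interval of 0.933 to 1.65. The log2 difference of tph1a was 0.45 with equal array medians and 0.44 after quantile normalization.

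tph2, the tryptophan hydroxylase gene known from raphe neurons, measured 7.58, 6.98 and 7.97 in hypoxia brains and 8.01, 6.81 and 8.26 in normoxia brains. Each group held 1 low fish, hypoxia 2 and normoxia 2, so the groups overlapped throughout. The range over the 6 fish was 1.45 log2 units, and the SD of tph2 over all fish was at percentile 95 among all genes, while the other 8 members lay between percentiles 3.63 and 56.6. The log2 difference was -0.18 (SE 0.39, limma adjusted p = 0.909), with an interval in ratio from 0.479 to 1.62, the widest of the members. Its sign rested on single fish, at 0.08 without hypoxia 2, 0.10 without normoxia 3 and -0.62 without normoxia 2. The changes of tph1a and tph2 differed by 0.49 within fish (exact two-sided permutation p = 0.3, adjusted 0.45, smallest possible p 0.1).

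Some transcripts of photoreceptors also varied widely between fish. The pineal organ, a photoreceptive gland on the roof of the brain, makes serotonin as the precursor of melatonin. The rod transducin gene gnat1 measured 8.42, 6.05 and 9.34 in hypoxia and 7.68, 6.05 and 8.93 in normoxia, lowest in the same 2 fish as tph2. The exo-rhodopsin gene exorh, a pineal opsin, measured 10.75, 6.53 and 10.51 in hypoxia and 7.08, 7.49 and 10.36 in normoxia, so normoxia 1 was low for exorh and high for tph2. Of the pineal list 7 of 8 genes were measured, with mean levels of 7.99, 6.85 and 7.98 in hypoxia and 7.27, 7.20 and 7.89 in normoxia. In this pineal list pde6hb (7.17 and 8.53) and otx5 (5.56 and 5.41) were, like tph2, lowest in hypoxia 2 and normoxia 2. The rest of the pineal list was not. gnat1 comes from the retina list, of which 10 of 12 genes were measured, with mean levels of 7.15, 6.55 and 7.30 in hypoxia and 6.59, 6.83 and 6.86 in normoxia. Besides gnat1, only gnat2 of that list was lowest in hypoxia 2 and normoxia 2 (6.12 and 6.69), so most of the list did not share this pattern. The cone opsin genes opn1mw1, opn1sw1 and opn1sw2 were highest in normoxia 2, at 6.81, 8.05 and 7.57. For opn1mw1 and opn1sw2 hypoxia 2 was close behind, at 6.76 and 7.56. The other cone opsin genes measured, opn1lw1 and opn1lw2, were highest in hypoxia 3, at 7.35 and 6.53. The part of pineal or retinal tissue in the values of tph2 was not tested. The photoreceptor genes named here, and otx5, were picked after their values were seen.

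**Figure D3:**
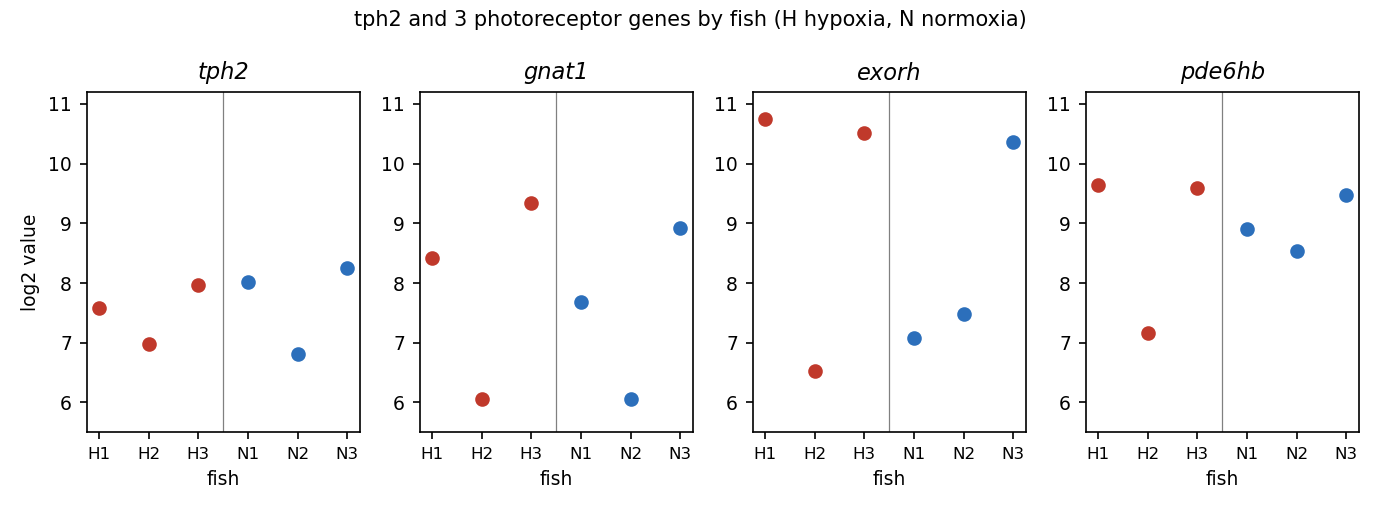
Log2 values of tph2 and of the photoreceptor genes gnat1, exorh and pde6hb in each fish, hypoxia (H) left of normoxia (N), on a shared axis. Hypoxia 2 and normoxia 2 are the lowest fish for tph2 (6.98 and 6.81), gnat1 (6.05 each) and pde6hb (7.17 and 8.53). For exorh the lowest are hypoxia 2 and normoxia 1 (6.53 and 7.08).

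slc6a4a, which encodes the serotonin transporter that returns serotonin to raphe neurons, measured 8.13, 8.41 and 8.34 in hypoxia brains, against 8.43, 8.73 and 8.43 in normoxia brains. The groups were separated by 0.02, less than the spread within either. The log2 difference was -0.24 (SE 0.19, limma adjusted p = 0.766), and it was -0.10 with equal array medians and -0.06 after quantile normalization. Its highest fish, normoxia 2, was the lowest for tph2. Over the 6 fish tph2 and slc6a4a had a Pearson r of -0.44 (exact permutation p = 0.417, adjusted 0.417) and a Spearman rho of -0.06 (p = 0.933, adjusted 0.933). The r was -0.72 with equal array medians and -0.85 after quantile normalization (adjusted p = 0.261 and 0.0778). Without hypoxia 2 and normoxia 2, the r of the remaining 4 fish in the deposited values was 0.93, so the sign there rested on those 2 fish.

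Among the genes shared by all 3 transmitters, ddc, the decarboxylase gene, measured 6.46, 6.55 and 6.56 in hypoxia brains and 6.65, 6.38 and 6.40 in normoxia brains. Its range of 0.27 over the 6 fish was the smallest of the members, and its interval in ratio ran from 0.786 to 1.36 around 1.03 (limma adjusted p = 0.952). slc18a2, the vesicular transporter that loads monoamines into vesicles, measured 6.83, 6.88 and 7.38 in hypoxia and 7.47, 6.85 and 7.00 in normoxia. Hypoxia 3 and normoxia 1 stood above the other 4 fish, 1 in each group, and the log2 difference was -0.08 (SE 0.24, limma adjusted p = 0.94). mao, the monoamine oxidase gene of zebrafish, measured 7.80, 8.09 and 8.11 in hypoxia and 8.18, 8.0 and 8.12 in normoxia. Hypoxia 1 was its lowest fish, without which the log2 difference of -0.10 (SE 0.18, limma adjusted p = 0.888) became 0.00.

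Read by fish, a pair of brains stood at the ends of most members. Hypoxia 1 was the lowest of the 6 fish for th, dbh, slc6a4a, slc18a2 and mao and the highest for tph1a. Normoxia 1 was the highest for th2, dbh, ddc, slc18a2 and mao and the lowest for tph1a. These are also the arrays with the smallest and the largest SD over all genes, 1.25 and 1.60, and the part of this array spread in the members' values was not tested. Mean deviations of the noradrenaline gene dbh from its own mean were -0.23 in hypoxia and 0.23 in normoxia. Those of th and th2 together, grouped here as dopamine genes although th also marks noradrenaline neurons, were -0.10 and 0.10. By fish, those of th and th2 were -0.25, -0.00 and -0.05 in hypoxia 1 to 3, against 0.27, 0.09 and -0.06 in normoxia 1 to 3. Those of the serotonin genes were -0.02 and 0.02, since the higher mean of tph1a in hypoxia stood against lower means of tph2 and slc6a4a, and those of the shared genes were -0.02 and 0.02.

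**Figure D4:**
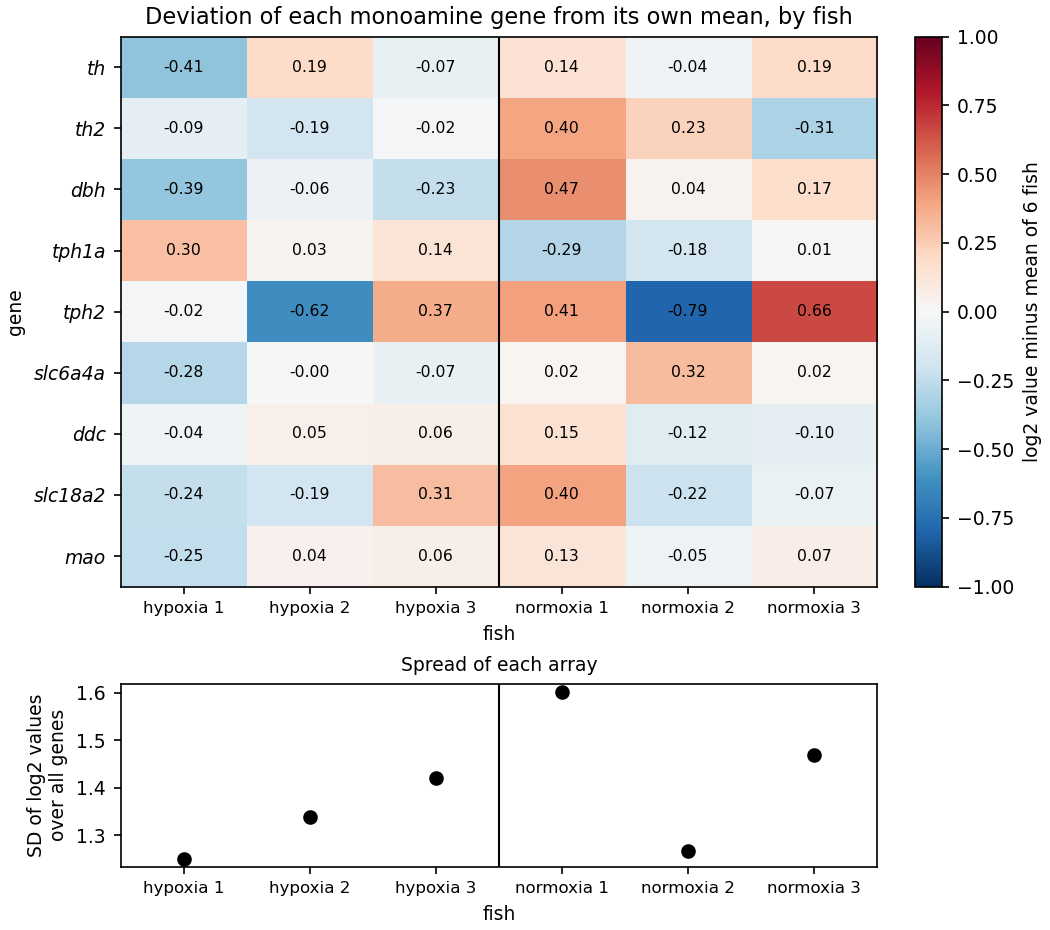
Upper panel, log2 value of each monoamine gene minus its mean over the 6 fish, hypoxia left of the black line and normoxia right of it, with red above and blue below the mean. Lower panel, the SD of log2 values over all genes on each array, on an axis that does not start at 0. Hypoxia 1 is below the mean in 8 of 9 genes and normoxia 1 above it in 8 of 9.

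th and dbh, which are expressed together in noradrenergic neurons, had a Pearson r of 0.76 over the 6 fish (exact permutation p = 0.0611, adjusted 0.122 over the 2 relations computed) and a Spearman rho of 0.67 (p = 0.161, adjusted 0.322). Hypoxia 1 was farthest from the median of th, and hypoxia 2 and normoxia 3 tied for the next place. r was 0.80 without hypoxia 1 and hypoxia 2, and 0.52 without hypoxia 1 and normoxia 3. With all fish it was 0.56 with equal array medians and 0.75 after quantile normalization (exact permutation, adjusted p = 0.261 and 0.0861). Neither relation passed, and the labels give no batch within which to repeat them. The genes whose values over the 6 fish were most like those of th were irf2bp2a (r = 0.996), tob1a (0.992) and tmbim4 (0.987), among 15574 genes compared. For dbh they were nr2c1 (0.998), dpm2 (0.997) and hspb6 (0.995), and for tph2 lman2la (0.992), jak2a (0.99) and ltbp3 (0.98). Each is among the highest of 15574 values over only 6 points, and they are given as description. An r over 0.95 was reached by 212 genes with dbh, 42 with tph2 and 21 with th.

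Around the members, 6 lists of related genes held 90 measured genes, of which none passed the limma test (7 had an unadjusted p under 0.05, all lower in hypoxia, against 5.76% lower among all genes). Genes that make or recycle tetrahydrobiopterin, the cofactor of the tyrosine and tryptophan hydroxylases, had lower means in 6 of 8 measured cases, with a median log2 difference of -0.40. That median was -0.26 with equal array medians and -0.27 after quantile normalization. spra, a sepiapterin reductase gene of the last synthesis step, measured 8.48, 8.74 and 8.60 in hypoxia brains, against 9.41, 9.08 and 9.53 in normoxia brains, without overlap. Its log2 difference was -0.73 (SE 0.19, limma unadjusted p = 0.00414, adjusted p = 0.72), and -0.86 to -0.64 with 1 array left out. The sepiapterin reductase gene sprb went the other way, at 6.62, 6.53 and 6.58 in hypoxia against 6.2, 6.5 and 6.48 in normoxia. The groups of sprb did not overlap, and its log2 difference was 0.18 (limma adjusted p = 0.797). The remaining cofactor gene with a higher mean, gch2, gave 0.03. Both sprb and gch2 were named after their values were seen.

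The cofactor gene pts, of the middle synthesis step, measured 7.18, 7.34 and 7.51 in hypoxia and 8.49, 7.39 and 7.94 in normoxia, a difference of -0.60 that was -0.32 without normoxia 1. The dihydropteridine reductase genes, which regenerate the cofactor, gave -0.56 for qdpra and -0.95 for qdprb.1, which was named after its values were seen. gch1, GTP cyclohydrolase of the rate-limiting cofactor step, gave -0.14, and pcbd1, which helps to recycle the cofactor, gave -0.25. The adjusted p of the 8 cofactor genes lay between 0.72 and 0.975. Markers of astroglia and oligodendrocytes were lower in the same direction, in 9 of 10 measured genes, with a median of -0.41 and mean levels of 9.73, 9.94 and 9.91 in hypoxia and 10.48, 9.82 and 10.70 in normoxia. The part of glial cells in the values of the cofactor genes was not tested.

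**Figure D5:**
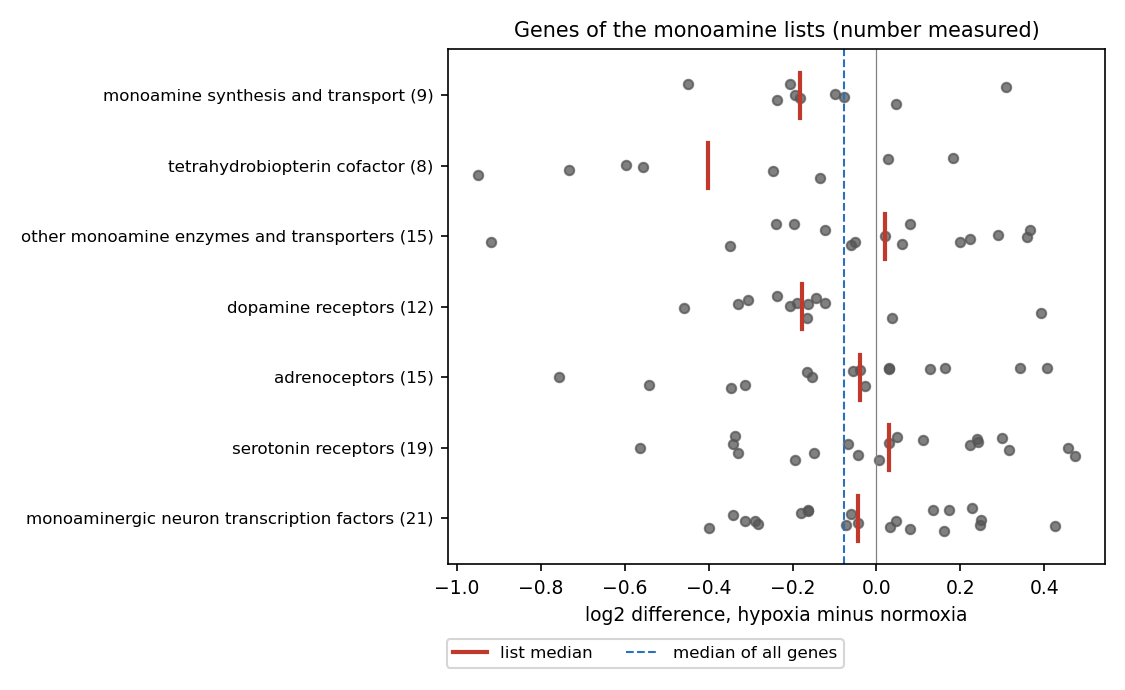
Log2 difference, hypoxia minus normoxia, of each gene in the monoamine lists, with the number measured in brackets. Red bars are list medians and the dashed line is the median of all genes (-0.08). The cofactor list has the lowest median, -0.40, and no gene shown passed the test.

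Of other monoamine enzymes and transporters, 8 of 15 had higher and 7 lower means in hypoxia, with a median of 0.02. With equal array medians 11 were higher, with a median of 0.16, and after quantile normalization 9, with a median of 0.02. Of all 19260 genes, 11306 were higher with equal array medians and 9997 after quantile normalization. comtb, a catechol O-methyltransferase gene that inactivates catecholamines, measured 7.12, 7.36 and 7.85 in hypoxia brains, against 8.86, 7.87 and 8.36 in normoxia brains. The groups were 0.02 apart, and the log2 difference was -0.92 (SE 0.29, limma unadjusted p = 0.0108, adjusted p = 0.72). The noradrenaline transporter gene slc6a2 gave 0.06, the remaining serotonin transporter gene slc6a4b gave 0.20 and tph1b, another tryptophan hydroxylase gene, gave 0.22. None of these 3 had groups that separated.

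Dopamine receptor genes had lower means in 10 of 12 cases, with a median log2 difference of -0.18, which was -0.04 with equal array medians and -0.09 after quantile normalization. Examples are drd1b (-0.31), drd2a (-0.33), drd2b (-0.24) and drd3 (-0.21), with adjusted p from 0.756 to 0.786. Adrenoceptor genes were lower in 9 of 15, with a median of -0.04 that turned to 0.10 and 0.06 under the other scalings. Among them adrb1 gave -0.54 (limma unadjusted p = 0.039), adra2a 0.13 and adra2c -0.04. The lowest difference of the list was -0.76 for adra1ab (limma unadjusted p = 0.0235, adjusted p = 0.72). The highest was 0.41 for adrb2b (adjusted p = 0.772). Both were named after their values were seen. Serotonin receptor genes were higher in 11 of 19, with a median of 0.03, and in 13 under each of the other scalings, with medians of 0.17 and 0.11. Under those scalings 11306 and 9997 of all 19260 genes were higher. htr1aa, which encodes the serotonin 1A receptor of raphe and target neurons, measured 6.94, 6.75 and 7.27 in hypoxia, against 7.63, 7.29 and 7.73 in normoxia, without overlap and with a difference of -0.56 (limma unadjusted p = 0.0257, adjusted p = 0.72). htr1ab gave -0.33, htr2cl1 -0.34 and htr7a 0.01. Of the 19 genes, htr1aa was the 1 without overlap and lower, and 3 were without overlap and higher. Over all genes these shares were 9.01% and 2.33%. The 3 were htr1e (0.24), htr5ab (0.32) and htr6 (0.22), named after their values were seen, with limma adjusted p from 0.725 to 0.766.

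The labelled tissue was checked against neuron markers. The 12 measured of 14 neuron markers had mean levels of 10.09, 10.36 and 10.44 in hypoxia brains and 10.83, 10.04 and 10.43 in normoxia brains. These lay above the array medians over all genes, 7.32 to 7.60. Pituitary transcripts, by contrast, were high in hypoxia 3 and normoxia 3, where the 9 measured markers averaged 9.72 and 10.32, against 6.34 to 7.15 in the other brains. With those 2 fish left out together, a setting chosen after seeing the data, no gene of the whole table passed, so the count of members says nothing there. The log2 difference was then -0.47 for dbh, 0.40 for tph1a, -0.46 for th2 and -0.305 for slc18a2.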

How the data were processed

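RNA of 6 brains was hybridised to Zebrafish Gene 1.0 ST arrays of Affymetrix, 1 brain per array, with 300 ng of total RNA and an RNA integrity number above 7.0, per the labels' protocols. According to the design text, the authors corrected background by RMA and normalized by quantiles. The submitters' processing notes name Expression Console and RMA without versions. What they deposited are log2 values, as judged from the range of 1.62 to 14.34. Platform annotation named 1 gene for 20806 of 75212 rows, several for 855 and none for 53551. Rows naming the same single gene were averaged, which gave 19260 genes.

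Differences are hypoxia minus normoxia, fitted over all genes and all 6 arrays without covariates by lmFit and eBayes of limma 3.58.1 (R 4.3.3). P-values were adjusted by Benjamini-Hochberg over the 19260 genes, with a threshold of 0.05. The procedure was tested on simulated data. The 10 genes, the lists and the tests were chosen with earlier results of these data known. Named genes were all measured members, a fixed set from the 6 other lists, and the 3 genes most correlated with th, dbh and tph2, among genes with an informative symbol and a mean log2 of at least 6. Contrasts between members within fish were added after the values were seen. The number of arrays, 3 per group, limits the precision. Alternatives were a replicate block, arrays left out, other scalings of the gene values, the brightest row per gene, a filter on dim genes, an intensity trend, robust moderation, array weights and another threshold.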

Additional observations from a re-analysis of the deposited data

How the results depend on the processing

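The number of monoamine genes past the threshold was 0 in the main analysis and under the replicate block, with any 1 array left out (0 to 0), with hypoxia 2 and normoxia 2 or hypoxia 3 and normoxia 3 left out together (added after the data were seen), and at a threshold of 0.1. With arrays left out, 0 to 17 of all genes passed, so these counts show little about stability. With array weights it was 2, dbh (-0.33, adjusted p = 0.0254) and tph2 (-0.96, adjusted p = 0.00527), and in the other lists 40 genes passed, a setting that gave normoxia 3 a weight of 39.9 and called 7550 of all genes. The members' median of -0.18 was -0.043 when array medians were made equal, 0.015 after quantile normalization, and -0.25 to -0.039 with 1 array left out, the last without hypoxia 1. The replicate block, the filter on dim genes, the intensity trend and robust moderation left each member's estimate as it was, so no sign could change there. The brightest row per gene could alter th only. Of 144 combinations of a member and a setting, these included, 13 had the opposite sign, none of them called. Among those of opposite sign were th2 with array weights (0.17), and tph2 (0.038), slc18a2 (0.015) and mao (0.078) after quantile normalization. Others were slc18a2 (0.063) and mao (0.04) with equal medians, and ddc without replicates 3 (-0.01) or 2 (-0.015) of both groups. The rest had 1 array left out: tph2 without hypoxia 2 (0.082) or normoxia 3 (0.10), slc18a2 without hypoxia 1 (0.023) or normoxia 1 (0.105), and ddc without normoxia 2 (-0.0017). With 1 array left out, tph2 ran from -0.62 to 0.10, slc18a2 from -0.25 to 0.105 (-0.305 without replicates 3 of both groups) and ddc from -0.00 to 0.13. The cause was not tested. Replicate numbers are shared between groups, and the labels give no batch. Deviations of same-numbered fish correlated at -0.34, 0.10 and 0.20, and those of the other pairs at -0.47 to 0.42. Pituitary markers were high in both fish numbered 3 (9.72 and 10.32). Whether same-numbered fish shared handling was not tested and cannot be told from these values. The replicate block, with dbh at a limma adjusted p of 0.832, changed no call. The relation of th with slc6a3 was not run. Array signals carry no depth, and brightness limits the dimmer row of th.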

Other observations

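Transcription factor genes that specify monoaminergic neurons did not pass the test, and their balance depended on scaling. Of 21 measured, 10 had a higher and 11 a lower mean in hypoxia, the median of the log2 differences was -0.04, and none passed the limma test or had an unadjusted p under 0.05. With equal array medians 13 were higher, with a median of 0.097, and after quantile normalization 12, with a median of 0.028. Of all 19260 genes, 11306 and 9997 were higher under these scalings, with medians of 0.063 and 0.011. fev, a factor of serotonin neurons, was dim at 5.46, 5.20 and 5.40 in hypoxia brains, against 4.62, 5.15 and 5.01 in normoxia brains, without overlap (0.43, adjusted p = 0.72). lmx1bb, which acts beside it, gave 0.14. The orphan nuclear receptor genes nr4a2a and nr4a2b, of dopamine neurons, gave 0.17 and 0.23, and otpa, of hypothalamic dopamine neurons, gave -0.16.

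Genes of related amines did not pass the limma test either. hdc, which makes histamine, measured 7.52, 7.55 and 7.68 in hypoxia and 8.27, 7.42 and 7.78 in normoxia (-0.24, adjusted p = 0.799). aanat2, the pineal enzyme that turns serotonin towards melatonin, measured 8.12, 7.99 and 8.14 in hypoxia and 7.72, 8.11 and 7.55 in normoxia (0.29, adjusted p = 0.755). Its values did not share the dip of gnat1 in hypoxia 2 and normoxia 2.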
